A study of Mus musculus with 11 samples.

Results

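Group 2 innate lymphoid cells (ILC2) are tissue lymphocytes that carry receptors for neuropeptides, and 7 genes of these pathways were followed here in lung ILC2 and in thymic DN3 cells. The genes were chosen by name from the 57186 gene entries of the count table: the neuromedin U receptor gene Nmur1, the vasoactive intestinal peptide (VIP) receptor genes Vipr1 and Vipr2, the calcitonin gene-related peptide (CGRP) receptor genes Calcrl, Ramp1 and Ramp3, and the peptide gene Calca. All 7 were found, each on 1 entry, and all 7 passed the filter on low counts in every comparison. Adrenergic receptors belong to the same field of ILC2 biology, but none is among the 7 genes, and those counted here stand with the other transmitter receptors further on.

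RNA was sequenced in bulk from cells sorted from untreated mice aged 14 days. Every mouse carried the alleles named Cd3giCre and Rosa26stopZsGreen, the first a Cre and the second a reporter in which Cre removes a stop and ZsGreen then stays on in the cell and its descendants. The lung ILC2 were sorted by the reporter into a ZsGreen-negative group of 5 libraries and a ZsGreen-positive group of 3 libraries. A further group of 3 libraries held DN3 cells of the thymus, which are CD4 and CD8 double-negative thymocytes at their stage 3 and were not split by ZsGreen in the labels. The labels do not give the cells in which the Cre allele is active or whether animals were pooled, so a p-value measures how far these libraries differ, which can include technical spread.

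Neuromedin U from cholinergic neurons acts on ILC2 through NMUR1, a receptor that couples to Gq and raises cell calcium. VIP acts through VPAC1 and VPAC2, the products of Vipr1 and Vipr2, which couple to Gs and raise cyclic AMP. CALCRL is a receptor that needs a RAMP partner: with RAMP1 it binds CGRP, and with RAMP2 or RAMP3 it binds adrenomedullin. Calca gives either calcitonin or CGRP by alternative splicing, and counts per gene do not separate the transcripts.

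In DN3 cells Calca, Nmur1 and Ramp3 had 3 counts or fewer in all, against at least 2797 in either lung group. The 250 bases upstream of their transcript starts are therefore shown, from RefSeq on GRCm38.p6, a build other than the one named in the submitters' processing notes, GRCm39. The windows are chr7:114636358-114636607 for Calca, chr1:86389362-86389611 and chr1:86388142-86388391 for the pair of Nmur1 starts, all on the minus strand, and chr11:6658283-6658532 for Ramp3 on the plus strand. Capitals mark matches, on either strand, to the letters of a GATA site (AGATAA and its variant form AGATAG, likewise TGATAA and its variant form TGATAG), the shorter cyclic AMP response element (TGACG), the full one (TGACGTCA), an AP-1 site (TGANTCA) or a nuclear receptor element (AGGTCA).

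Calca: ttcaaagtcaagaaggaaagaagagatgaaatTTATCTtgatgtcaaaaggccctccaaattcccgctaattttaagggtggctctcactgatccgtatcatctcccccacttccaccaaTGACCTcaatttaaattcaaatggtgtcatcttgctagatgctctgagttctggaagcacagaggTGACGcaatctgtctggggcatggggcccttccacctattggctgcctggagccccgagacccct

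Nmur1 start 1: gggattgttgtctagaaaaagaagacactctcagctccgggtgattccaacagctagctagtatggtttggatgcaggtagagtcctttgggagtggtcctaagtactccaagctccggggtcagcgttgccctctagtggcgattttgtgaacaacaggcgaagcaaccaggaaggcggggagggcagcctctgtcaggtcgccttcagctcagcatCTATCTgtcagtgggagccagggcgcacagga

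Nmur1 start 2: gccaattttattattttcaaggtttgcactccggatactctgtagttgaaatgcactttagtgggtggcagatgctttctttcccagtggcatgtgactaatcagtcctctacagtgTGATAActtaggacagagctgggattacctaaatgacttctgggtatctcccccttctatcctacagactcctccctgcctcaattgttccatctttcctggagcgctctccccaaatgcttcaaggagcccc

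Ramp3: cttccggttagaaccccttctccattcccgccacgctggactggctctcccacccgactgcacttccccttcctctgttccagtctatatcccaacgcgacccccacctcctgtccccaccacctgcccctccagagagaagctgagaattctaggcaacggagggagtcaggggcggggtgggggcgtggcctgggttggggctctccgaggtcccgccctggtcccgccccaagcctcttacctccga

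The Calca window held TTATCT, which is a GATA match on the other strand, TGACCT, which is AGGTCA on the other strand, and TGACG. Each Nmur1 window held 1 GATA match and no other match. In GENCODE transcripts of Nmur1 the bases that follow start 2 were found, and those that follow start 1 were not. The Ramp3 window held none of these letters, nor did those of Vipr2, Ramp1 and Calcrl, while that of Vipr1 held 1 TGACG match. Over 32851 RefSeq windows of the same length, 26.5% held a GATA match, 17.8% TGACG, 14.0% AGGTCA, 6.75% the AP-1 letters and 1.55% TGACGTCA, so that matches to the first 3 are common. A match describes letters and is not evidence that a factor binds there.

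Library totals ran from 4495260 to 14424313 counts in ZsGreen-negative ILC2, from 5762491 to 17627469 in ZsGreen-positive ILC2 and from 5951494 to 7745062 in DN3. Levels are given in CPM, a gene's count scaled to the size of its library with TMM factors from the 11 libraries, and they compare one gene between libraries, not one gene with another, since no gene length is applied. A single count was worth 0.0606 to 0.24 CPM in lung libraries and 0.106 to 0.14 CPM in DN3 libraries. The labelled cell types were checked against markers: 12 ILC2 marker genes such as Gata3 and Il1rl1 summed to between 11850 and 14660 CPM in lung libraries and to between 377.5 and 391 CPM in DN3, where Il1rl1, Il13, Areg, Klrg1 and Ccr8 had 0 counts. DN3 marker genes such as Rag1 and Ptcra summed to between 7651 and 7863 CPM in DN3. In the lung they summed to between 1250 and 1547 CPM, with Rag2 and Ptcra at 0 counts. Most of the lung sum was Il2ra, with means of 965.1 and 822.9 CPM in ZsGreen-negative and ZsGreen-positive ILC2 and 1088 CPM in DN3. Bcl11b came next, with means of 401.4 and 389.3 CPM in the same lung groups and 744.3 CPM in DN3.

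Of the 7 genes, 1 was lower in ZsGreen-positive than in ZsGreen-negative lung ILC2 and 0 were higher at an adjusted p under 0.05. Of all 13771 genes tested, 2.18% were lower and 2.35% higher, 4.52% in all. The gene that fell was Calca, to 0.71 times its ZsGreen-negative level. The groups overlapped for all 7 genes, and for 10.3% of all genes tested they did not. The median log2 fold change of the 7 was -0.14, and that of all genes tested was -0.001. The model had the batch date in the labels as a term, since both lung groups occur on both dates.

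**Figure D1:**
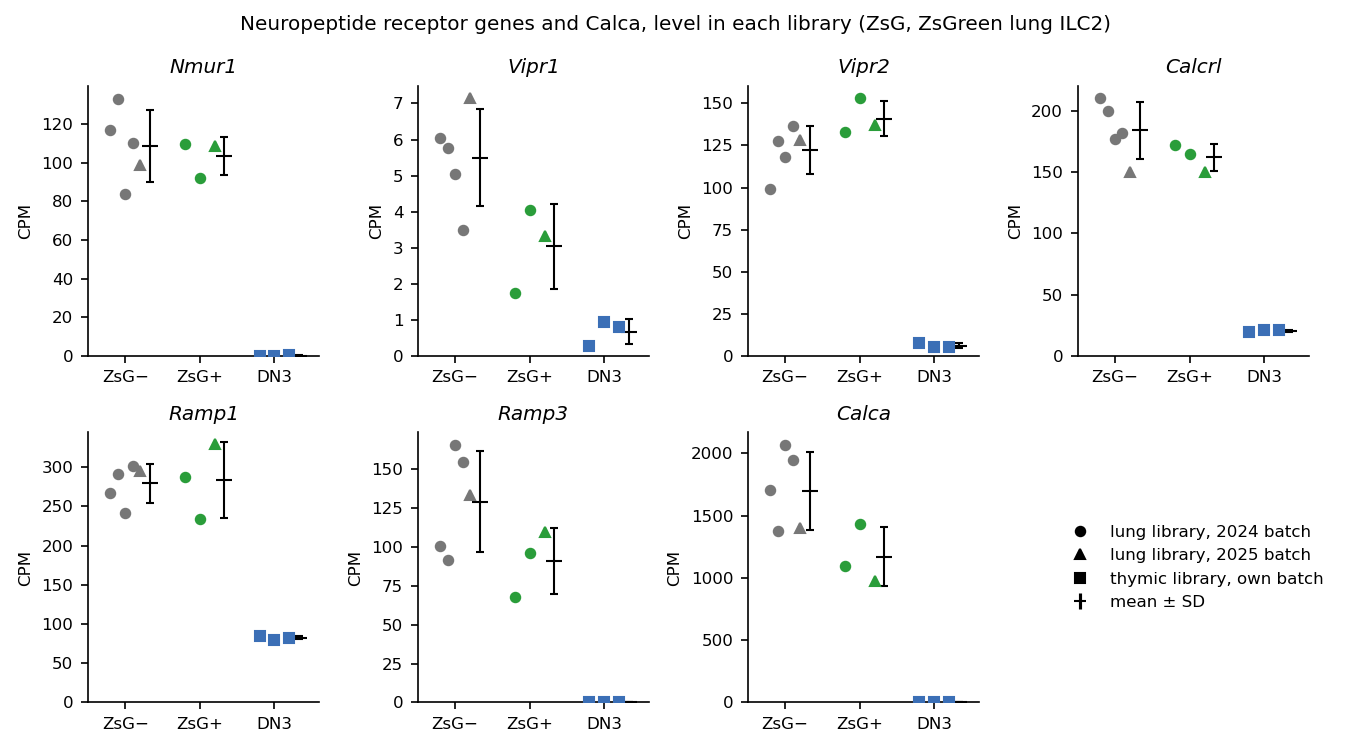
Level of the 7 genes in each of the 11 libraries, in CPM on linear axes that start at 0, one panel a gene. Points are libraries (circles, lung libraries dated 2024; triangles, lung libraries dated 2025; squares, thymic libraries) and black bars the mean ± SD; the ZsGreen-negative (ZsG−) and ZsGreen-positive (ZsG+) ranges overlap in every panel, and DN3 lie below both.

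Nmur1, the neuromedin U receptor gene, was at 116.9, 133, 83.58, 110.2 and 98.94 CPM in ZsGreen-negative libraries 1 to 5. In ZsGreen-positive libraries 1 to 3 it was at 109.4, 92.23 and 108.7 CPM, all inside the ZsGreen-negative range. The means were 108.5 ± 18.61 (SD, n = 5) and 103.4 ± 9.714 CPM (SD, n = 3). The log2 fold change was -0.06 ± 0.12 (SE), with a 95% confidence interval from -0.31 to 0.19 (edgeR quasi-likelihood test, Benjamini-Hochberg (BH) adjusted p = 0.8885). Its sign differed between batches (-0.12 within 2024, 0.14 within 2025), and it also turned positive in the fits without ZsGreen-negative library 2 or ZsGreen-positive library 2.

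Vipr2, the gene of VPAC2, was at 99.13, 127.9, 118.4, 136.5 and 128.3 CPM in ZsGreen-negative ILC2 and at 133.1, 152.9 and 137 CPM in ZsGreen-positive ILC2. Only ZsGreen-negative library 4 reached into the ZsGreen-positive range. The means were 122.1 ± 14.32 (SD, n = 5) and 141 ± 10.51 CPM (SD, n = 3), a log2 fold change of 0.20 ± 0.10 (SE) that did not pass the test (edgeR, BH-adjusted p = 0.3104). Vipr1, the gene of VPAC1, was counted at far fewer reads, 205 over the 5 ZsGreen-negative and 89 over the 3 ZsGreen-positive libraries. Its levels were 6.055, 5.774, 5.044, 3.495 and 7.142 CPM against 1.748, 4.034 and 3.333 CPM. ZsGreen-negative library 4 lay within the ZsGreen-positive range, and the other four lay above it. The means of 5.502 ± 1.352 (SD, n = 5) and 3.038 ± 1.171 CPM (SD, n = 3) gave a log2 fold change of -0.94 ± 0.31 (SE), with an unadjusted p of 0.006794 that did not pass after adjustment (edgeR, BH-adjusted p = 0.09451). With limma voom the same gene passed, at a log2 fold change of -1.03 (BH-adjusted p = 0.03517, in a range from 0.03517 to 0.5604 over 18 alternatives).

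Because both VIP receptor genes are read in the same library, their ratio does not depend on how the libraries are scaled. There were 0.0619, 0.0458, 0.0436, 0.0262 and 0.0559 Vipr1 counts per Vipr2 count in ZsGreen-negative ILC2, and 0.0137, 0.027 and 0.0246 in ZsGreen-positive ILC2. ZsGreen-negative library 4 again fell inside the ZsGreen-positive range. The mean log2 ratio was -4.48 ± 0.48 (SD, n = 5) against -5.58 ± 0.53 (SD, n = 3). The difference of -1.10 had p = 0.03571 in a two-sided exact permutation test and 0.07143 after BH adjustment over the 2 ratios tested, where the smallest p the design allows is 0.01786.

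Calcrl, the receptor gene common to the CGRP and adrenomedullin receptors, was at 210.9, 199.9, 177.3, 182.4 and 150.6 CPM in ZsGreen-negative and at 172.1, 164.7 and 150.2 CPM in ZsGreen-positive ILC2. The lowest library of each group was the one dated 2025. The means were 184.2 ± 23.11 (SD, n = 5) and 162.3 ± 11.16 CPM (SD, n = 3), and the log2 fold change was -0.14 ± 0.08 (SE; edgeR, BH-adjusted p = 0.4546). Within 2025, with 1 library a group, the difference was -0.004 on the log2 scale, against -0.19 within 2024.

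Ramp1, the partner that makes the CGRP receptor, was at 267.5, 291.2, 241.4, 301.4 and 294.9 CPM in ZsGreen-negative ILC2, with a mean of 279.3 ± 24.75 (SD, n = 5). In ZsGreen-positive ILC2 it was at 287.6, 233.6 and 329.7 CPM, with a mean of 283.6 ± 48.17 (SD, n = 3). The ZsGreen-positive libraries held both the lowest and the highest value of the 8. The log2 fold change was -0.01 ± 0.09 (SE), with a 95% confidence interval from -0.21 to 0.19 (edgeR, BH-adjusted p = 0.9816), and its sign changed under 7 of 18 alternatives.

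Ramp3, the partner that makes an adrenomedullin receptor, varied more between libraries: 100.7, 91.84, 165.2, 154.4 and 133.5 CPM in ZsGreen-negative and 67.87, 95.9 and 109.6 CPM in ZsGreen-positive ILC2. ZsGreen-negative libraries 1 and 2 lay within the ZsGreen-positive range and libraries 3 to 5 above it. The means were 129.1 ± 32.26 (SD, n = 5) and 91.11 ± 21.26 CPM (SD, n = 3), and the log2 fold change of -0.54 ± 0.26 (SE) did not pass the test (edgeR, BH-adjusted p = 0.3962). There were 2.65, 3.17, 1.46, 1.95 and 2.21 Ramp1 counts per Ramp3 count in ZsGreen-negative ILC2 and 4.23, 2.43 and 3.01 in ZsGreen-positive ILC2. The difference in mean log2 ratio was 0.51, beside SDs of 0.43 (n = 5) and 0.40 (n = 3). It did not pass the test (two-sided exact permutation test, p = 0.1607, and 0.1607 after BH adjustment over the 2 ratios). In the GENCODE annotation of the older build Ramp3 overlaps the pseudogene Gm11978 on the opposite strand, and Vipr2 an antisense gene, Gm20658. Whether counting used the strand is not given in the sources used here, so reads of these pairs may be mixed.

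Calca, the peptide gene, was at 1709, 1378, 2064, 1946 and 1398 CPM in ZsGreen-negative ILC2, from 56603 counts in all. In ZsGreen-positive ILC2 it was at 1095, 1433 and 977.2 CPM, from 31461 counts. ZsGreen-positive library 2 lay above ZsGreen-negative libraries 2 and 5, and the other two lay below all 5. The means were 1699 ± 311.4 (SD, n = 5) and 1169 ± 236.5 CPM (SD, n = 3). The log2 fold change was -0.49 ± 0.13 (SE), with a 95% confidence interval from -0.78 to -0.21 and a BH-adjusted p of 0.0455 in the edgeR quasi-likelihood test. On the log2 scale the difference was -0.48 within 2024 and, with 1 library a group, -0.52 within 2025.

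The Calca difference kept its sign in all 18 alternatives (-0.64 to -0.38), but its adjusted p crossed 0.05 in 12 of them, in a range from 3.858e-06 to 0.2455. Leaving out a single library was enough to lose the call: the edgeR BH-adjusted p was 0.07374, 0.05664, 0.07854 and 0.1963 without ZsGreen-negative library 1, 3, 4 or 5, and 0.2147 and 0.1754 without ZsGreen-positive library 1 or 3. In bulk RNA, fewer cells that make a transcript and less transcript per cell cannot be told apart.

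**Figure D2:**
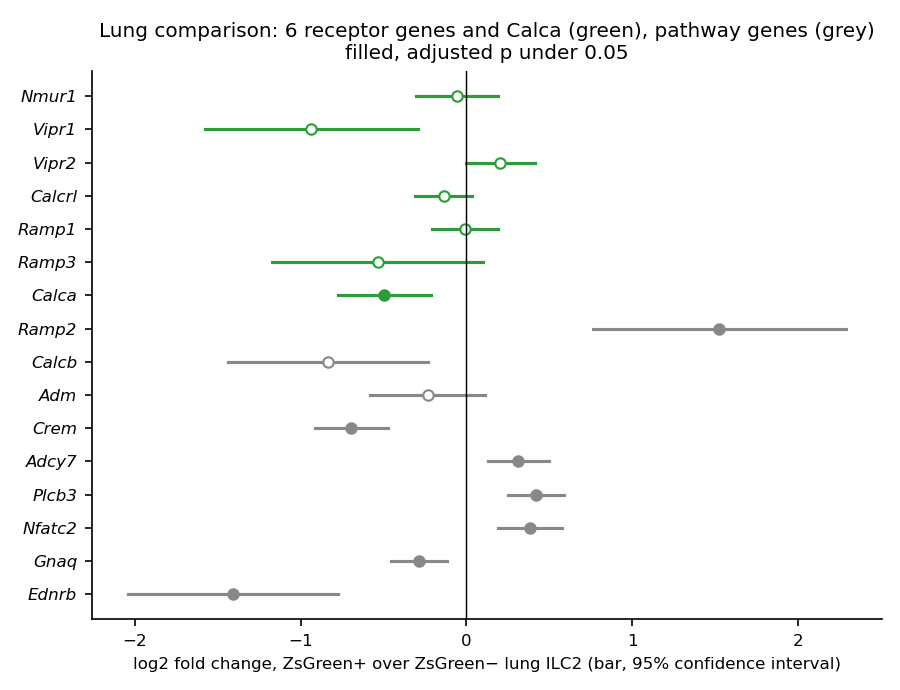
Log2 fold change in ZsGreen-positive over ZsGreen-negative lung ILC2 (x axis) of the 7 genes (green) and of genes of their pathways (grey), with 95% confidence intervals from edgeR as bars. Filled points have an adjusted p under 0.05: of the green points that is Calca at -0.49, and the intervals of Nmur1, Ramp1, Ramp3, Calcrl and Vipr2 cross 0.

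Markers of other cells differed between the lung groups. The mean log2(CPM + 1) over lung endothelial, epithelial and stromal marker genes had a mean of 3.19 ± 0.48 over the 5 ZsGreen-negative libraries (SD) and of 4.09 ± 0.40 over the 3 ZsGreen-positive libraries. Summed endothelial markers ran from 115.2 to 191.9 and from 172.7 to 219.5 CPM, epithelial markers from 306.3 to 852.4 and from 815.6 to 2221 CPM, and stromal markers from 35.01 to 226 and from 145.6 to 377.6 CPM. Of those tested, 3 of 11 endothelial, 2 of 11 epithelial and 1 of 5 stromal genes were higher in ZsGreen-positive ILC2 and 0 lower. Of all genes tested, 2.35% were higher and 2.18% lower. With that marker score as a further term, the Calca log2 fold change was -0.63 ± 0.19 (SE), where the SE without the term was 0.13. Its edgeR BH-adjusted p was 0.2446, and 65 genes in all were called in place of 623. The score ran from 2.716 to 3.923 in ZsGreen-negative and from 3.755 to 4.541 in ZsGreen-positive libraries. Score and group can therefore hardly be separated in 8 libraries, and a call lost in this fit cannot be read as an effect of these cells. The part of these cells in the results was not tested further.

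Pulmonary neuroendocrine cells and neurons also transcribe Calca. The 9 neuroendocrine markers summed to between 2.157 and 4.083 CPM in ZsGreen-negative and to between 1.834 and 2.621 CPM in ZsGreen-positive libraries, none reached the filter for testing, and Resp18 had 0 counts in all. The 7 neuron and glia markers summed to between 2.526 and 5.159 and to between 2.667 and 4.584 CPM, with Sox10 and Snap25 at 0 counts. Mast cell and basophil markers summed to between 836.5 and 979.2 CPM in ZsGreen-negative and to between 670.6 and 798.1 CPM in ZsGreen-positive libraries, nearly all of it Kit and Cpa3. Cpa3 was lower in ZsGreen-positive ILC2 by the edgeR test (209.7 ± 39.32 and 111.1 ± 19.97 CPM, BH-adjusted p = 2.3e-05), and the chymase gene Mcpt4 and the tryptase gene Tpsb2 had 0 counts in both groups. B cell markers summed to between 16.78 and 18.47 and to between 16.17 and 40.67 CPM. Of these, 1 of 4 genes tested was higher, beside 2.35% of all genes tested. Macrophage and dendritic cell markers summed to between 57.95 and 156.6 and to between 115.2 and 245.3 CPM, with 0 of 8 called by edgeR and 2 at an unadjusted p under 0.05. Alpha-beta T cell markers summed to between 10.32 and 13.76 and to between 8.884 and 17.33 CPM, with 0 of 3 called by edgeR and 0 at an unadjusted p under 0.05. Cd3e, a T cell receptor complex gene that was listed with the DN3 markers, was higher in ZsGreen-positive ILC2, at 22.99 ± 4.235 CPM (SD, n = 3) against 1.606 ± 0.5581 CPM (SD, n = 5; edgeR, BH-adjusted p = 3.257e-08), and its part in the results was not tested.

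All 7 genes were lower in thymic DN3 cells than in either lung group, and no DN3 library overlapped a lung library for any of them. DN3 differ from lung ILC2 in most genes. Against ZsGreen-negative ILC2, 76.7% of the 15132 genes tested were called, 41.2% lower and 35.5% higher in DN3, and against ZsGreen-positive ILC2 75.1% were called, 40.3% lower and 34.8% higher. The groups did not overlap, with DN3 lower, for 39.9% and 42.1% of genes. All DN3 libraries carry a batch date that no lung library shares, and a difference of tissue cannot be told apart from one of batch. Both comparisons use the same DN3 libraries and are given side by side. For Vipr2, Calcrl and Ramp1 the calls were the same in all 18 alternatives run for each comparison. The calls of Nmur1, Ramp3, Calca and Vipr1, which passed the filter through the lung libraries, are not counted in this way.

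The 7 genes fell into those that were nearly uncounted in DN3 and those that kept a measurable level. Nmur1 had 0, 1 and 2 counts in DN3 libraries 1 to 3, Ramp3 1, 0 and 0, and Calca 0, 2 and 0. For genes at so few counts the ratio of pooled CPM is given with its 95% counting interval, which covers counting error only. Nmur1 was 912 times as high in ZsGreen-negative ILC2 as in DN3 (312 to 4420) and 898 times in ZsGreen-positive ILC2 (307 to 4360). Ramp3 was 3280 times as high (589 to 130000) and 2470 times (443 to 97600). Calca was 20600 times as high (5710 to 170000) and 13900 times (3850 to 115000). In DN3 these 3 genes were below the filter's minimum count of 10, so they passed it through the lung libraries. Their edgeR p-values against DN3 are therefore not given as support.

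Vipr2 was at 7.692, 5.071 and 5.311 CPM in DN3, a mean of 6.025 ± 1.449 (SD, n = 3), 20.1-fold lower than in ZsGreen-negative and 23.1-fold lower than in ZsGreen-positive ILC2. Vipr1 was at 0.2797, 0.9508 and 0.7911 CPM, from 18 counts, with fitted log2 fold changes of -2.94 and -2.06. Calcrl was at 19.3, 21.23 and 20.91 CPM, a mean of 20.48 ± 1.035 (SD, n = 3), 8.76-fold and 7.7-fold lower. Every DN3 library lay below the lowest lung library for these 3 genes. The gap was narrowest for Vipr1, between 9 counts in DN3 library 2 and 12 counts in ZsGreen-positive library 1. At no more than 9 counts in a DN3 library, Vipr1 too passed the filter through the lung libraries. Its edgeR p-values against DN3 are likewise not given as support.

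Ramp1 had the smallest fitted difference of the 7 in both comparisons, although the 95% confidence interval of Vipr1 against ZsGreen-positive ILC2 (-2.98 to -1.13 on the log2 scale) overlapped that of Ramp1. DN3 libraries had 84.47, 80.18 and 82.61 CPM, a mean of 82.42 ± 2.151 (SD, n = 3), from 2094 counts. That was 3.32-fold lower than in ZsGreen-negative ILC2, with a log2 fold change of -1.73 (edgeR, BH-adjusted p = 8.933e-13), and 3.36-fold lower than in ZsGreen-positive ILC2. Ramp1 and Calcrl, whose products together form the CGRP receptor, were thus both counted in DN3, in libraries where Calca had 2 counts in all and Ramp3 had 1.

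**Figure D3:**
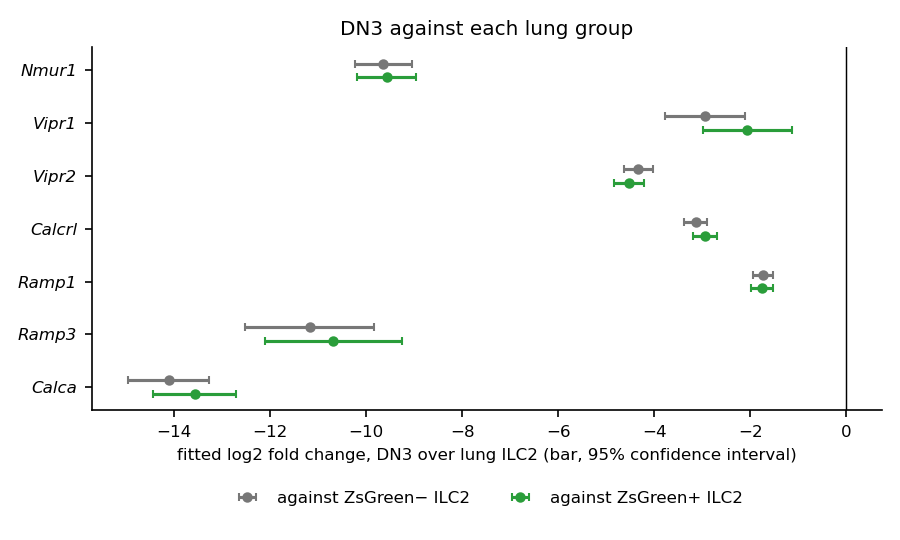
Fitted log2 fold change in DN3 over each lung group (x axis; grey, against ZsGreen-negative; green, against ZsGreen-positive ILC2) of the 7 genes, with 95% confidence intervals from edgeR. All points lie below 0, from Ramp1 at -1.73 and -1.75 to Calca at -14.12 and -13.57; the fitted values of Nmur1, Ramp3 and Calca rest on 1 to 3 DN3 counts and depend on how the model treats them.

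Of the other ligands and receptors of these families, 4 of 13 passed the filter in the lung. Nmur2, Nmu, Nms, Vip, Adm2 and Iapp had 0 counts in all 11 libraries, so transcripts of the peptides neuromedin U and VIP were not detected. A count of 0 allows up to 0.0859 CPM over the ZsGreen-negative, 0.104 CPM over the ZsGreen-positive and 0.118 CPM over the DN3 libraries. Ramp2, the third RAMP and an adrenomedullin receptor partner, was higher in ZsGreen-positive ILC2 at low level: 2.076, 2.526, 4.083, 1.664 and 1.488 CPM against 5.534, 4.217 and 9.757 CPM, without overlap. Its log2 fold change was 1.53 ± 0.36 (SE; edgeR, BH-adjusted p = 0.02032). Ramp2 is also one of the lung endothelial markers that were higher in the same libraries. With the marker score as a term its value was 0.47 (edgeR, BH-adjusted p = 0.9445), but the score includes Ramp2 itself, which lowers that value by construction. In the 2024 batch alone the call was lost (edgeR, BH-adjusted p = 0.2928). Of fits that left out 1 library, those lacking ZsGreen-negative library 5 (value 0.97, edgeR BH-adjusted p = 0.2359), ZsGreen-positive library 3 (0.96, 0.3077), ZsGreen-negative library 1 (0.05144) and ZsGreen-positive library 1 (0.0569) did not pass.

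Calcb, which encodes the second form of CGRP, was at 4.844, 5.594, 4.804, 7.821 and 4.91 CPM in ZsGreen-negative and at 3.932, 3.851 and 1.818 CPM in ZsGreen-positive ILC2. The groups did not overlap, but the log2 fold change of -0.83 did not pass the test (edgeR, BH-adjusted p = 0.1139). Calcb is a close paralogue of Calca, and its counts were 0.233% to 0.406% of the Calca counts in ZsGreen-negative and 0.186% to 0.359% in ZsGreen-positive libraries, so how reads were split between the copies matters and the value is uncertain. Adm, the gene of adrenomedullin, was at 15.87 ± 3.149 (SD, n = 5) and 12.78 ± 3.102 CPM (SD, n = 3) in the lung groups (edgeR, BH-adjusted p = 0.5614) and had 0 counts in DN3. In DN3, 3 of the 4 tested genes of this list were lower and 1 was higher when set against ZsGreen-negative ILC2. Against ZsGreen-positive ILC2, 3 were lower and 0 higher. Over all genes tested, 41.2% were lower and 35.5% higher in the first comparison, and 40.3% and 34.8% in the second. The lower genes, Ramp2, Calcb and Adm, had 9, 2 and 0 counts in DN3 and passed the filter through the lung libraries.

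Gs and cyclic AMP signalling lies below the VIP and CGRP receptors. Among its 29 tested genes, 1 was higher and 1 lower in ZsGreen-positive ILC2, beside 2.35% and 2.18% of all genes tested. The median log2 fold change was -0.07 beside -0.001 over all genes. The lower one was Crem, a cyclic AMP-responsive transcription factor gene that is itself induced by the pathway. It was at 657.9, 655.4, 766.7, 858.2 and 589.2 CPM in ZsGreen-negative and at 424.5, 481.9 and 363 CPM in ZsGreen-positive ILC2, without overlap. The log2 fold change was -0.69 ± 0.10 (SE; edgeR, BH-adjusted p = 0.0005999), and 17 of 18 alternatives kept the call, the exception being the marker score as a term, where the log2 fold change was -0.67 (edgeR, BH-adjusted p = 0.0751). The higher one was the adenylyl cyclase gene Adcy7, at 447.7 ± 35.82 (SD, n = 5) and 557.7 ± 20.15 CPM (SD, n = 3), with a log2 fold change of 0.31 (edgeR, BH-adjusted p = 0.04758) that 13 of 18 alternatives did not keep.

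Gq and calcium signalling lies below NMUR1. Among its 24 tested genes, 2 were higher and 1 lower, beside 2.35% and 2.18% of all genes tested, with a median of 0.06. The phospholipase gene Plcb3 rose from 104 ± 11.08 (SD, n = 5) to 143.1 ± 19.14 CPM (SD, n = 3), a log2 fold change of 0.42 ± 0.08 (SE; edgeR, BH-adjusted p = 0.003952). Nfatc2, a calcium-activated transcription factor gene, rose from 94.76 ± 11.13 (SD, n = 5) to 124.3 ± 1.361 CPM (SD, n = 3; edgeR, BH-adjusted p = 0.02083). Gnaq, which encodes the Gq alpha subunit, fell from 142.8 ± 7.389 (SD, n = 5) to 115.8 ± 5.075 CPM (SD, n = 3; edgeR, BH-adjusted p = 0.04758), and 13 of 18 alternatives did not keep that call. With the marker score as a term the log2 fold changes were 0.32 for Plcb3 (edgeR, BH-adjusted p = 0.4983) and 0.37 for Nfatc2 (edgeR, BH-adjusted p = 0.5328), neither past the threshold, and Nfatc2 did not pass in the fits lacking ZsGreen-positive library 1 (0.09695) or 2 (0.0987) either.

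None of the 7 genes of receptor desensitisation, G protein-coupled receptor kinases and arrestins, was called between the lung groups by edgeR, and 0 had an unadjusted p under 0.05. Of these, Grk3 was at 6.416 ± 1.686 (SD, n = 5) and 9.191 ± 3.315 CPM (SD, n = 3; edgeR, BH-adjusted p = 0.3556) and Grk5 at 23.87 ± 1.952 and 26.84 ± 1.312 CPM (edgeR, BH-adjusted p = 0.476). Of 35 other transmitter receptor genes, 10 were tested in the lung, with 0 higher and 1 lower, beside 2.35% and 2.18% of all genes tested. Ednrb, an endothelin receptor gene, was at 7.612, 4.872, 10.81, 6.324 and 6.844 CPM in ZsGreen-negative and at 2.185, 3.484 and 2.485 CPM in ZsGreen-positive ILC2, a log2 fold change of -1.41 ± 0.30 (SE; edgeR, BH-adjusted p = 0.009957). Leaving out the fifth ZsGreen-negative library ended that call (edgeR, BH-adjusted p = 0.08488), as did leaving out ZsGreen-positive library 1 (0.05878) or 3 (0.06201) or the 2025 batch (0.07071). The adrenergic receptor genes of this list were at low level: Adra2a was at 3.172 ± 0.9041 (SD, n = 5) and 1.546 ± 0.7863 CPM (SD, n = 3; edgeR, BH-adjusted p = 0.1019) and Adra1b at 1.198 ± 0.7267 and 3.076 ± 2.195 CPM (edgeR, BH-adjusted p = 0.1314).

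**Figure D4:**
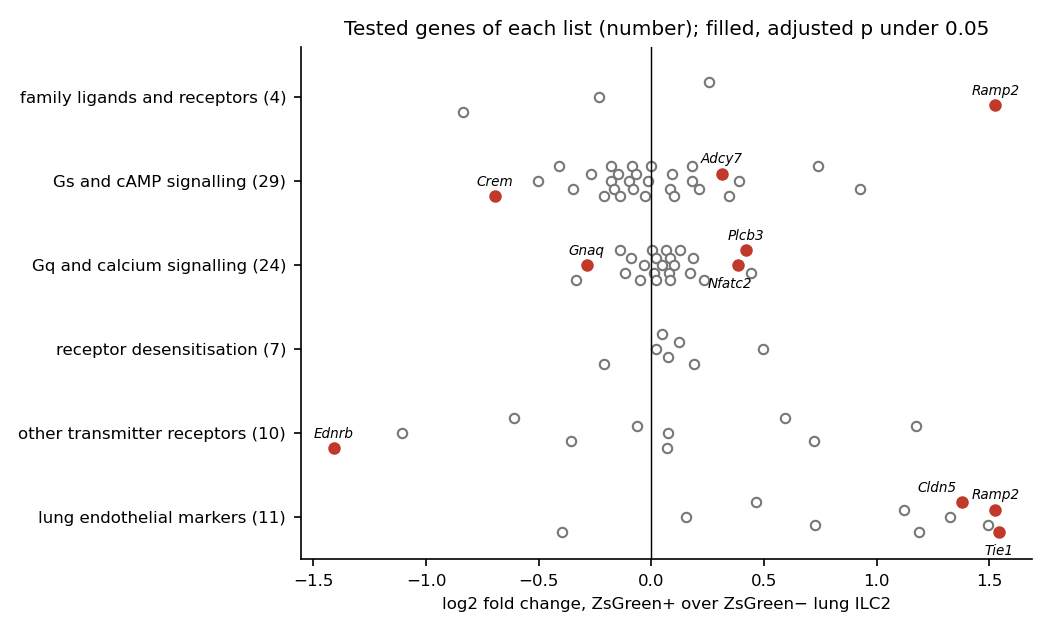
Log2 fold change in ZsGreen-positive over ZsGreen-negative lung ILC2 (x axis) of every tested gene of 5 pathway lists and of the lung endothelial markers (rows, with the number tested). Each point is a gene, and red points have an adjusted p under 0.05; most genes of the Gs, Gq and desensitisation lists lie close to 0, while 10 of 11 endothelial markers lie above it, Ramp2 at 1.53 among them.

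In DN3 more of the tested signalling genes were lower than higher, as was so over all genes (41.2% lower and 35.5% higher than in ZsGreen-negative ILC2). Against ZsGreen-negative ILC2, 21 of 30 tested Gs and cyclic AMP genes were lower and 7 higher (median log2 fold change -0.84), and 19 of 24 Gq and calcium genes were lower and 5 higher (median -0.96). Over all genes tested the median was -0.10, and over the 7 receptor and peptide genes it was -4.33. Crem, at 4.689 ± 0.4337 CPM in DN3 (SD, n = 3), had a log2 fold change of -7.20 (edgeR, BH-adjusted p = 1.054e-18). Rapgef3, which encodes the cyclic AMP sensor EPAC1, ran the other way, at 141.1 CPM in DN3 against 2.146 and 2.657 CPM in the lung groups. Of the desensitisation genes 4 of 7 were lower and 1 higher, and of the other transmitter receptors 7 of 13 were lower and 3 higher. The somatostatin receptor gene Sstr2 was among those higher in DN3, at 10.65 CPM against 0.05 and 0.11 CPM. Against ZsGreen-positive ILC2 the counts were 22 lower and 8 higher of 30, 17 and 4 of 24, 5 and 1 of 7, and 7 and 2 of 13 in the same order. Over all genes tested against that group, 40.3% were lower and 34.8% higher.

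Across the 8 lung libraries the 7 genes did not share 1 profile. Likeness was measured as the mean absolute difference between log2(CPM + 1) profiles, each centred on its own mean, so that 0 is an identical profile. The closest pairs among the 7 were Nmur1 and Ramp1 at 0.136 and Nmur1 and Calcrl at 0.147, genes that themselves moved by only 0.13 to 0.16 on average. Ramp3 and Calca, which varied more, differed by 0.255, and Vipr1 and Vipr2, at 0.512, were the farthest apart. These distances are descriptions over 8 libraries that share their depth and batches.

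Among 9632 genes with a mean of at least 5 CPM, the profiles nearest to Calca were those of Homer1 at 0.057, Tinf2 at 0.066 and Snx18 at 0.073. The median over all candidates was 0.331. Nearest profiles lie below the median by the choice itself, so each median given here and below serves only as a scale. Homer1, a scaffold protein gene, was at 138.4, 112.2, 172.4, 154.9 and 119.9 CPM in ZsGreen-negative and at 91.9, 102 and 82.73 CPM in ZsGreen-positive ILC2. As for Calca, its ZsGreen-negative libraries 3 and 4 were highest and ZsGreen-positive library 3 lowest. The mean of Snx18 over the ZsGreen-negative libraries was 166.1 CPM and over the ZsGreen-positive ones 111.8 CPM, and the means of Tinf2 were 268.5 and 199.6 CPM. Because these genes were chosen for their likeness to Calca over the same libraries, a lower level in ZsGreen-positive ILC2 comes with the choice, and no test of it is given. For Ramp3 the nearest were Grb7 at 0.078, Mid1-ps1 at 0.126 and Zmym1 at 0.152, with a median over candidates of 0.364.

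**Figure D5:**
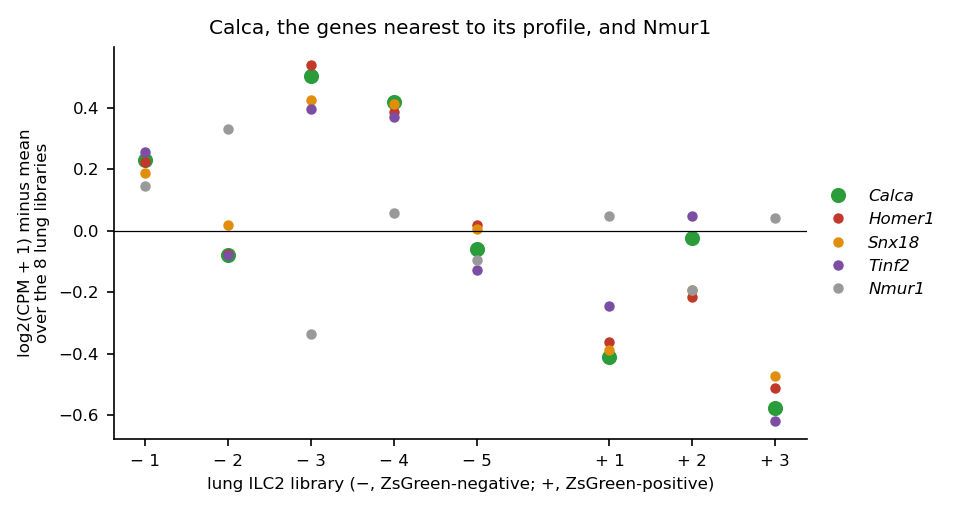
Log2(CPM + 1) minus its mean over the 8 lung libraries (y axis) of Calca, of the 3 genes nearest to its profile and, for contrast, of Nmur1, in each lung library (x axis). The points of Homer1, Snx18 and Tinf2 lie near those of Calca, the measure by which they were chosen, whereas Nmur1 lies apart in ZsGreen-negative libraries 2 and 3 and ZsGreen-positive libraries 1 and 3.

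For Nmur1 the nearest were Dhcr7 at 0.037, Dbr1 at 0.045 and Psma6 at 0.05 (median over candidates 0.194). For Vipr2 they were Idnk at 0.054, Ighmbp2 at 0.055 and Haus3 at 0.058 (median 0.192). For Ramp1 they were Maf1 at 0.029, Chmp1a at 0.037 and Arhgdib at 0.037 (median 0.173), and for Calcrl Sdcbp at 0.029, Snapc5 at 0.045 and Srsf10 at 0.045 (median 0.19). Nmur1, Vipr2, Ramp1 and Calcrl themselves moved by only 0.12 to 0.16 on average, so small distances are easily reached for them. Vipr1 had a mean under 5 CPM in the lung and was not compared in this way.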

How the data were processed

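Bulk RNA of sorted cells was extracted with a PicoPure kit and made into libraries with a Watchmaker mRNA kit, per the labels' protocols. The deposited table holds whole-number counts per gene for all 11 libraries, and the submitters' processing notes name GRCm39 and DESeq2. For the aligner, counting program, annotation and use of strand, the answer is not given in the sources used here. A second table, of lung libraries, was not used.

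The members and gene lists were chosen with earlier results of these data known. Counts were tested with edgeR 4.0.16 in R 4.3.3 (quasi-likelihood F test, TMM, robust, filterByExpr on the groups, minimum count 10), and p-values had Benjamini-Hochberg adjustment over all genes tested, with a threshold of 0.05. The lung fit took 8 libraries and had the batch as a term. DN3 comparisons took all 11 libraries without it. Levels are CPM on TMM scaling over the 11 libraries. Ratios of counts had 0.5 added, and 56 splits were enumerated. The script was tested on simulated data.

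Alternatives were RLE and upper-quartile scaling, DESeq2 1.42.0, limma 3.58.1 voom, no filter, a replicate block, no batch term, the 2024 batch alone, a joint fit, the marker score and leaving out each library. All 7 genes are named. Of each pathway list, up to 6 called in the lung were named by smallest p, otherwise the 2 of smallest p. For each gene with a mean of at least 5 CPM the 3 nearest profiles were named, leaving out predicted, ribosomal, mitochondrial and sex-linked genes. Calcb, Adm, Adra2a, Adra1b, Cpa3, Cd3e, Il2ra, Bcl11b, Gabbr1, Rapgef3 and Sstr2 fall outside these rules and were chosen after their values were seen. Motif letters were searched in RefSeq windows of GRCm38.p6, where 7 of 7 genes matched. Overlapping genes were looked up by name in GENCODE vM21.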

Additional observations from a re-analysis of the deposited data

How the results depend on the processing

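For Vipr2, Calcrl and Ramp1 the comparisons of DN3 with lung ILC2 kept their direction and call in the 18 alternatives run. Nmur1, Ramp3, Calca and Vipr1 passed the filter through the lung libraries, so their calls against DN3 say nothing of stability. The lung comparison of the 7 genes depended on the settings. In the lung 1 of the 7 was lower, and 0 were lower with upper-quartile scaling, the replicate block, no batch term, only the 2024 batch, all 11 libraries in one fit or the marker score as a term. With limma voom 2 were lower, Calca and Vipr1, and leaving out 1 library gave 0 to 1. The number of all genes called in the lung was 623, and 1028 with limma voom, 1081 without the low-count filter, 298 in the 2024 batch, 65 with the marker score and 286 to 751 leaving out 1 library (286 when the fifth ZsGreen-negative library was omitted, and 302 and 321 when ZsGreen-positive library 3 or 2 was).

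Replicate numbers are shared between groups, but they did not pair the libraries: the correlations of same-numbered deviations were 0.078, -0.139 and -0.049 between the lung groups, and not every library correlated best with its own number. In the lung fit the replicate block took the place of the batch term. It joined ZsGreen-negative library 3, dated 2024, with ZsGreen-positive library 3, dated 2025, and left ZsGreen-negative libraries 4 and 5 without a partner. With this block the lung fit called 233 genes and Calca was at -0.56 (edgeR, BH-adjusted p = 0.2455). Ramp1 was at 0.079 with the block, and the block also ended the calls of Plcb3 (0.05605), Nfatc2 (0.1548), Ramp2 (0.1289), Adcy7 (0.3547) and Gnaq (0.2814).

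The sign of small lung differences turned. Ramp1 was at 0.024 with no batch term, 0.0203 in the joint fit and 0.095 with the marker score, and leaving out 1 library gave -0.0735 to 0.0885 (positive without ZsGreen-negative library 2 or 4 or ZsGreen-positive library 2). Nmur1 was at 0.0863 with the marker score and at -0.1336 to 0.0287 leaving out 1 library. Gabbr1, a GABA receptor gene, was at -0.18 with the marker score and at -0.0313 to 0.1707 leaving out 1 library, and Rapgef3 at -0.49 with the marker score. The cause was not tested. Both ratios kept their direction, from -1.30 to -0.80 for Vipr1 to Vipr2 and from 0.29 to 0.69 for Ramp1 to Ramp3. Permutation tests that lack a library have fewer splits and can hardly reach the threshold, so their p-values say nothing of stability. Depth limits Vipr1, Ramp2, Calcb and Ednrb in the lung, and in DN3 every gene at 3 counts or fewer.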
